A study of Mus musculus with 6 samples.

Results

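The genes described here encode 10 cell-surface receptors that guide the migration of CD4 T cells: 9 chemokine receptors (Cxcr3, Cxcr4, Cxcr5, Cxcr6, Ccr2, Ccr4, Ccr6, Ccr7 and Ccr8) and S1pr1, the receptor for the lipid sphingosine 1-phosphate (S1P). All 10 were measured, by 14 probe sets that name 1 gene each, out of 18193 genes and 45037 probe sets in the series. The probe set with the highest mean over all arrays stands for its gene. The series holds 3 arrays of SAP-deficient cells and 3 arrays of wild-type (WT) cells. Mice of both genotypes were OT-II transgenic, so their CD4 T cells share a receptor for ovalbumin peptide presented by MHC class II. SAP, the product of Sh2d1a, is an adaptor that couples SLAM-family receptors to downstream kinases. The labels name the SAP-deficient strain without describing its allele, and they give neither age nor sex of the mice.

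Naive CD4 T cells (CD44 low, CD25 negative) sorted from spleen and lymph nodes were cultured for 3.5 days. Their stimulus was ovalbumin peptide, presented by mitomycin C-treated splenocytes from which T cells had been removed. The medium held IL-6 at 100 ng/ml and IL-21 at 50 ng/ml for both genotypes. Antibodies blocked TGF-β (at 20 µg/ml), IL-4 (at 10 µg/ml) and, with no dose stated, IFN-γ and IL-12. This mixture steers the cells toward follicular helper T (Tfh) cells, which help B cells in germinal centres. The cells are an in vitro model, and the splenocytes were in the same wells. The comparison asks which transcripts of Tfh-like cells depend on SAP.

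Chemokine receptors are G protein-coupled receptors that read gradients of small secreted proteins and turn them, mostly through Gi proteins, into directed movement and integrin activation. In lymphoid tissue CCR7 holds T cells in the T zone, CXCR5 draws Tfh cells to the CXCL13 of the B cell follicle, and S1PR1 lets cells leave toward the S1P of blood and lymph. CXCR3, CXCR6 and CCR2 guide effector cells to inflamed tissue, CCR4 and CCR8 are typical of type 2 and regulatory T cells, and CCR6 is typical of Th17 cells. Loss of CCR7 and S1PR1 with gain of CXCR5 is the classical receptor profile of a Tfh cell.

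In RefSeq (GRCm38.p6) 5 of the genes lie on chromosome 9: Cxcr5 (chr9:44511787-44526444), Ccr4 (chr9:114490316-114505476), Ccr8 (chr9:120092133-120094906), Cxcr6 (chr9:123806477-123811754) and Ccr2 (chr9:124101918-124109140). The others are Cxcr4 (chr1:128588199-128592299), S1pr1 (chr3:115710433-115715055), Ccr7 (chr11:99144199-99155077), Ccr6 (chr17:8236041-8258519) and Cxcr3 (chrX:101731535-101734147). Promoter sequences were matched for 7 of the 10 genes and not for Cxcr5, Ccr7 and S1pr1. The 4 windows of 250 bases before the annotated start shown here are read 5′ to 3′ on the gene's strand. Cxcr6 is the gene whose genotype groups did not overlap, Ccr6 and Cxcr4 are the lower genes with the largest differences, and Ccr8 varied most between replicate numbers. Capitals mark matches, on either strand, to 8 short motifs, which were CACCC (KLF), GATAA (GATA), TTCNNNGAA (STAT), NF-kB by its name, AGGTGTGA (T-box), CACGTG (E-box), TGANTCA (AP-1) and GTAAACA (FOXO).
Cxcr6, chr9:123806227-123806476, plus strand: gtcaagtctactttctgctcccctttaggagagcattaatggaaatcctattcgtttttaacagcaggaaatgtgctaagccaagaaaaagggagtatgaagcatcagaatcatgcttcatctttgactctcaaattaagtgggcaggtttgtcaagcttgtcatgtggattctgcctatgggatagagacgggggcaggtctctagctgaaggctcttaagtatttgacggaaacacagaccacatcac
Ccr6 (first of its RefSeq windows), chr17:8235793-8236042, plus strand: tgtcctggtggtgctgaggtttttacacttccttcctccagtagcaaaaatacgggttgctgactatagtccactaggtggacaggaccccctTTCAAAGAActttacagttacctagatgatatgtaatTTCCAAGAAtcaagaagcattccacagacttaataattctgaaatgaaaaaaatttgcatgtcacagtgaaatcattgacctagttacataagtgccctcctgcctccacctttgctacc
Cxcr4, chr1:128592300-128592549, minus strand: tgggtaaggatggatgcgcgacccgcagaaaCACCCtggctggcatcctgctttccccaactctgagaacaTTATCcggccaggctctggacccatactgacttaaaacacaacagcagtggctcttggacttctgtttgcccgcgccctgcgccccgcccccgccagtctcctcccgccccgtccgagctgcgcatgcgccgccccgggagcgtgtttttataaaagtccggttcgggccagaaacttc
Ccr8, chr9:120091883-120092132, plus strand: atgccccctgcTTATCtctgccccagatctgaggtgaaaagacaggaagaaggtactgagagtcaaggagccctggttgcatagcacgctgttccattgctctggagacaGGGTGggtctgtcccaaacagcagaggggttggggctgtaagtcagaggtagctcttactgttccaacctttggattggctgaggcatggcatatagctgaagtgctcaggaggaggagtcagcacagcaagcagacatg
The Ccr6 window shown held 2 STAT matches, where 7.02% of the 32851 RefSeq windows of this length held at least 1. The other Ccr6 window held no STAT match, only a GATA match. The Cxcr4 and Ccr8 windows each held 1 KLF and 1 GATA match, motifs present in 52.0% and 22.6% of all windows. None of the 8 motifs matched in the Cxcr6 window. These are letter matches in short windows and say nothing about whether a factor binds there.

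The arrays were compared as deposited, on the log2 scale of RMA, where a difference of 1 is a 2-fold change. Sh2d1a, the gene encoding SAP, had 5.47, 4.10 and 4.92 in SAP-deficient replicates 1 to 3, against 9.50, 8.52 and 9.39 in WT replicates 1 to 3 (adjusted p = 0.0501, limma; 1.99e-07 with arrays of equal replicate number as a block). Replicate numbers follow the order of deposit and the labels state no pairing. Arrays of equal number nevertheless deviated together from their genotype's mean, with correlations over probe sets of 0.52, 0.73 and 0.60. For unequal numbers they were -0.098 or lower, but deviations from a genotype's mean cancel out, so negative values follow in part from the positive ones. The levels themselves correlated at 0.9957 to 0.9978 for equal and at 0.9886 to 0.9936 for unequal numbers. Differences within equal numbers are therefore given beside the pooled ones. The labels do not state whether replicates are different mice. Xist and Eif2s3y, an X-linked and a Y-linked gene, differed widely between replicate numbers (values given with the replicate patterns), so the spread between arrays behind each p-value is not only technical. All 10 T cell markers lay above the median probe-set mean of 5.75, among them Cd3e at 10.84, 10.38 and 10.80 in SAP-deficient cells and at 10.96, 10.53 and 10.79 in WT cells.

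No homing receptor gene passed the test between SAP-deficient and WT cells. The largest differences were in Cxcr6, higher by 0.30 (1.23-fold) in SAP-deficient cells, and Ccr6, lower by a difference of -0.32. For the other 8 genes the difference lay between -0.24 and 0.18. Limma called 0 of the 10 genes at an adjusted p under 0.05, and the background share called was 0.00% of all genes. At an unadjusted p under 0.05 there was 1 of the 10, Cxcr6, where the background share was 1.31%. Over all genes 9700 differences were above 0 and 8493 below, with a median of 0.0078. Of the 10 receptor differences 4 were above 0 and 6 below, with a median of -0.075. The sign of that median was not stable: it was 0.046 with array weights, 0.023 without SAP-deficient replicate 2 and 0.084 without WT replicate 3.

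**Figure D1:**
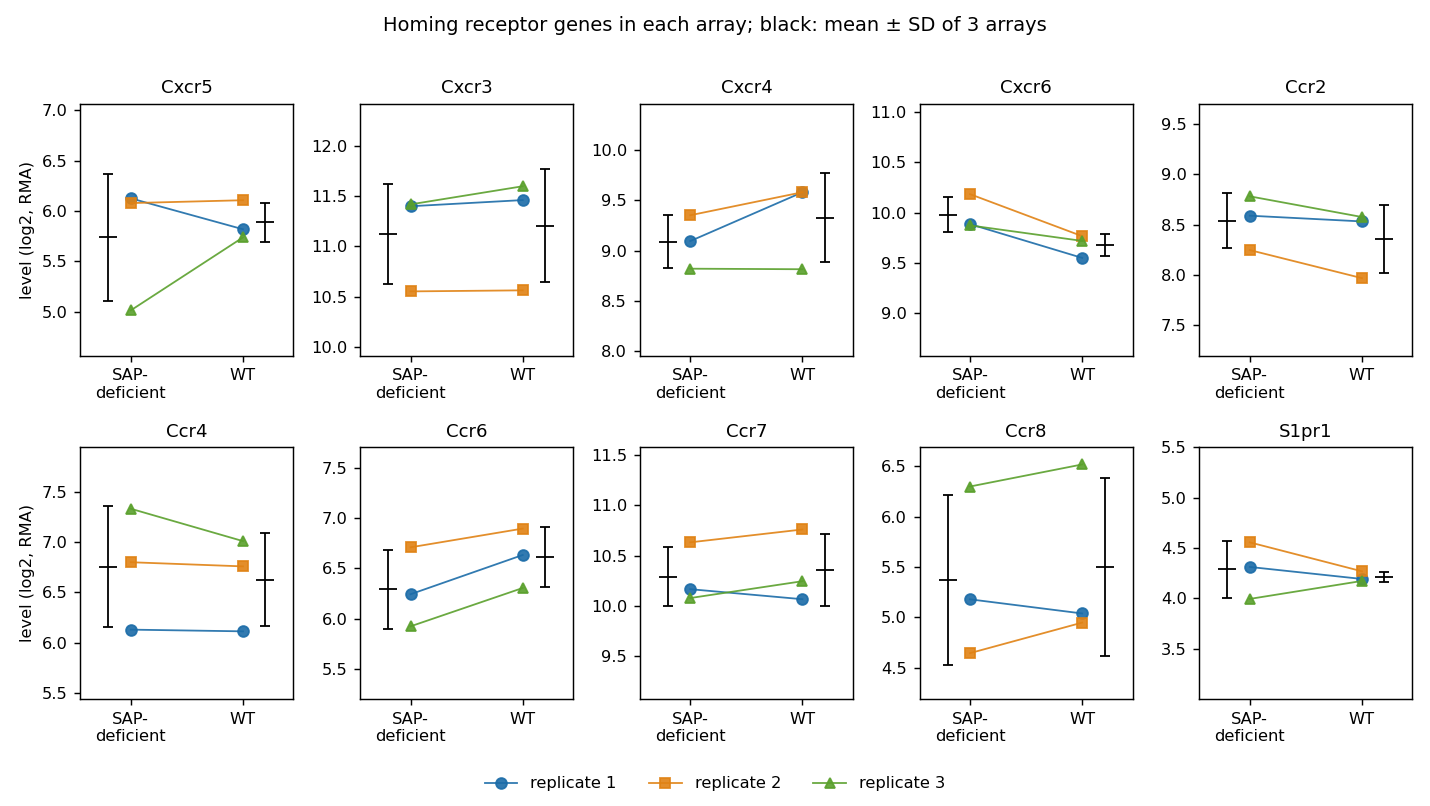
Level of each homing receptor gene (log2, RMA) in the 3 SAP-deficient arrays (left) and the 3 WT arrays (right) of each panel. Lines join arrays of equal replicate number, black bars are mean ± SD of 3 arrays, and every panel spans the same 2.5 log2 units. The Cxcr6 groups are separate; Cxcr3 is low in replicate 2 and Ccr8 high in replicate 3 of both genotypes.

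Among the receptors of lymphoid positioning, Cxcr5, whose protein brings T cells to the follicle, had 6.12, 6.08 and 5.01 in SAP-deficient replicates 1 to 3, against 5.82, 6.11 and 5.74 in WT replicates 1 to 3. SAP-deficient replicate 3 stood below all other arrays, and the remaining 5 lay within a narrow band. The genotype difference was -0.15 (95% interval -0.81 to 0.51, adjusted p = 1.00, limma), with 0.31, -0.028 and -0.72 within replicate numbers 1 to 3. Without SAP-deficient replicate 3 the difference was 0.21. The mean over the 6 arrays, 5.81, was close to the median of all probe sets. Markers of B cells, which also express Cxcr5, differed by a mean of -0.16, -0.058 and -0.36 within replicate numbers 1 to 3. MHC class II genes differed by -0.11, -0.015 and -0.46. In replicate 1 both were lower while Cxcr5 was higher, and in replicates 2 and 3 Cxcr5 and both marker groups were lower. The part of these markers' cells in the Cxcr5 values was not tested. In such bulk RNA, fewer cells of a type and less RNA per cell cannot be told apart.

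Ccr7, encoding the T zone receptor that is usually reduced as Tfh cells form, had 10.17, 10.63 and 10.08 in SAP-deficient replicates 1 to 3, against 10.07, 10.76 and 10.25 in WT replicates 1 to 3. Both genotypes were highest in replicate 2 and the groups overlapped throughout. The difference was -0.065 (95% interval -0.54 to 0.41). All 6 Ccr7 values lay above the 75th percentile of probe-set means (8.03). S1pr1, encoding the egress receptor, was at 4.31, 4.56 and 3.996 in SAP-deficient cells and at 4.19, 4.27 and 4.17 in WT cells. Its difference was 0.076 (95% interval -0.25 to 0.41), and all 6 arrays lay under the median of 5.75. The SAP-deficient arrays spread more (SD 0.28) than the WT arrays (SD 0.051, n = 3 each), and their range enclosed the WT values.

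Cxcr4, whose product responds to CXCL12 and places cells in the dark zone of germinal centres and in bone marrow, had 9.10, 9.35 and 8.82 in SAP-deficient replicates 1 to 3, against 9.58, 9.58 and 8.82 in WT replicates 1 to 3. The first and second SAP-deficient arrays were below their WT counterparts, and the replicate 3 arrays were nearly equal and lowest. The pooled difference was -0.24 (95% interval -0.77 to 0.30; -0.49 to -0.10 when 1 array was left out), made up of -0.48, -0.23 and 0.0054 within replicate numbers. With replicate number as a block the unadjusted p was 0.0302 and the adjusted p 0.800 (limma).

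Among receptors of inflamed tissue, Cxcr6, whose ligand CXCL16 is displayed on antigen-presenting cells and epithelia, was the only one of the 10 genes in which every SAP-deficient array lay above every WT array. Its levels were 9.89, 10.18 and 9.87 in SAP-deficient replicates 1 to 3 and 9.55, 9.77 and 9.72 in WT replicates 1 to 3. The lowest SAP-deficient array, 9.87, was just above the highest WT array, 9.77, and the SDs were 0.18 and 0.11 (n = 3 each). The difference of 0.30 had a 95% interval of 0.016 to 0.59, or a ratio of 1.01 to 1.5, and an adjusted p of 1.00 (limma; 0.500 with the block). Groups were separate in the same direction in 2.38% of all genes. The number of the 10 genes with separate groups in either direction was 0 with the probe set of largest variance for each gene. It ran from 1 to 3 when 1 array was left out, but smaller groups separate more often, and no share over all genes was computed there. A second Cxcr6 probe set had 9.06, 9.49 and 9.03 in SAP-deficient cells and 8.97, 9.06 and 8.84 in WT cells. There the groups overlapped, since the replicate 2 WT array reached the SAP-deficient values, and the difference was 0.23 (95% interval -0.12 to 0.59). Both probe sets were higher in SAP-deficient cells at each replicate number, by 0.34, 0.42 and 0.15 in the brighter and by 0.085, 0.43 and 0.19 in the dimmer one.

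Ccr2, encoding the receptor for the monocyte chemoattractant CCL2, was measured by 4 probe sets, the most of any member. The brightest had 8.59, 8.25 and 8.78 in SAP-deficient replicates 1 to 3, against 8.53, 7.97 and 8.58 in WT replicates 1 to 3. Replicate 2 was lowest in both genotypes, and each SAP-deficient array was above the WT array of its number. The difference was 0.18 (95% interval -0.30 to 0.66; blocked, unadjusted p = 0.0469 and adjusted p = 0.814, limma). The other 3 probe sets differed by 0.17, 0.11 and 0.20, and the dimmest was separate, with 5.47, 5.39 and 5.53 in SAP-deficient cells and 5.16, 5.27 and 5.36 in WT cells. Over all probe sets 5.70% had groups that did not overlap, and among the 14 of the homing receptors there were 2, 1 of Cxcr6 and 1 of Ccr2. One Ccr2 probe set was lower in SAP-deficient replicate 2, by a difference of -0.11. Monocytes also express Ccr2; of the 13 markers of macrophages, monocytes and dendritic cells 8 lay above 0 and 5 below in SAP-deficient minus WT, and their summed level ran from 9.41 to 9.84 in SAP-deficient and from 9.49 to 9.81 in WT arrays. Their part in the Ccr2 signal was not tested.

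**Figure D2:**
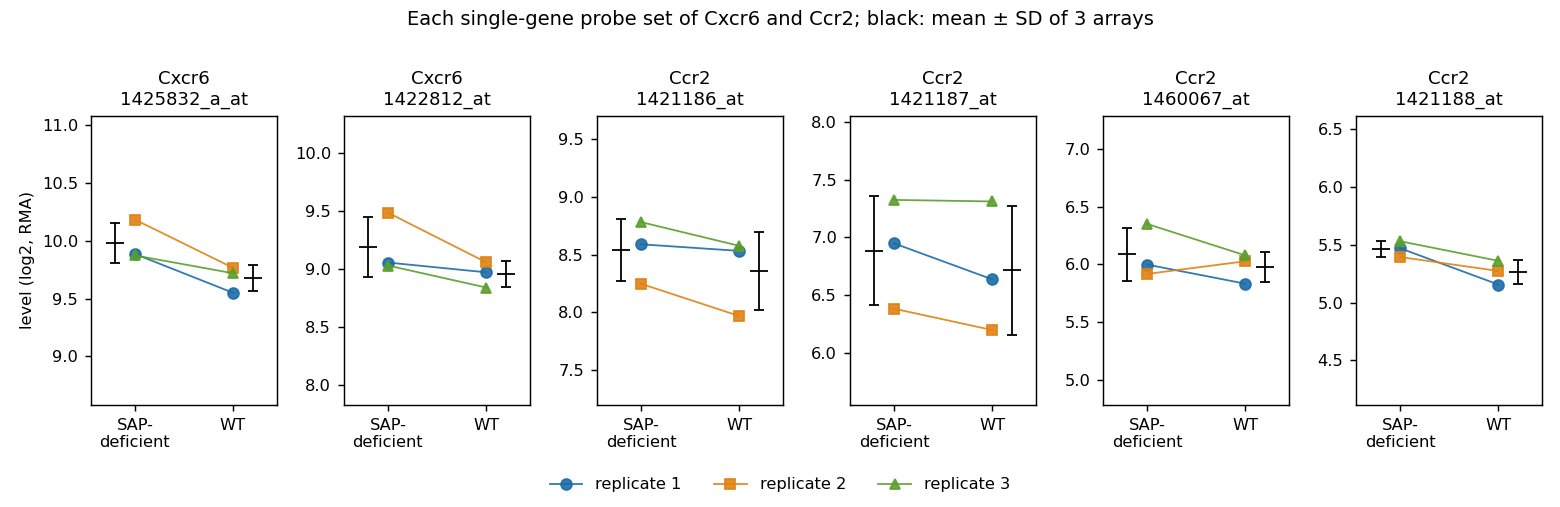
Level (log2, RMA) of the 2 Cxcr6 and 4 Ccr2 single-gene probe sets in SAP-deficient (left) and WT (right) arrays, with lines joining equal replicate numbers and black bars for mean ± SD of 3 arrays. All joined pairs but 1, replicate 2 of the second-dimmest Ccr2 probe set, were higher in SAP-deficient cells.

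Cxcr3, encoding the receptor for the interferon-induced ligands CXCL9 and CXCL10 and a mark of Th1 cells, had 11.40, 10.55 and 11.42 in SAP-deficient replicates 1 to 3, against 11.46, 10.56 and 11.60 in WT replicates 1 to 3. Both replicate 2 arrays were low by nearly the same amount, and genotypes differed by -0.084 (95% interval -0.80 to 0.64). Within replicate numbers the differences were -0.061, -0.011 and -0.18, while the replicate means were 11.43, 10.56 and 11.51. Pairs of equal number held 98.4% of the sum of squares of this gene and genotype 0.937%. Its signal was above the 75th percentile of probe sets in every array.

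Among receptors typical of type 2 and regulatory cells, Ccr8 had 5.18, 4.65 and 6.30 in SAP-deficient replicates 1 to 3, against 5.04, 4.95 and 6.52 in WT replicates 1 to 3. Replicate 3 was far above the others in both genotypes, and the pair means were 3.06-fold apart. The genotype difference was -0.13, with a 95% interval of -1.30 to 1.04 that allows ratios from 0.407 to 2.06. Ccr4 had 6.13, 6.80 and 7.33 in SAP-deficient replicates 1 to 3 and 6.11, 6.76 and 7.01 in WT replicates 1 to 3. It too was highest in replicate 3 of both genotypes, and the replicate 1 arrays were lowest. The Ccr4 difference was 0.13 (95% interval -0.63 to 0.88).

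Ccr6, encoding the CCL20 receptor of Th17 cells and also of B cells, had 6.24, 6.71 and 5.92 in SAP-deficient replicates 1 to 3, against 6.63, 6.89 and 6.30 in WT replicates 1 to 3. Each SAP-deficient array was below the WT array of its number, but the groups overlapped. The difference was -0.32 (95% interval -0.84 to 0.21; ratio 0.802; -0.53 to -0.13 when 1 array was left out), with -0.39, -0.19 and -0.38 within replicate numbers 1 to 3. With the block the unadjusted p was 0.00921 and the adjusted p 0.722 (limma). All 12 measured B cell markers were lower in SAP-deficient cells in the pooled difference, beside 8493 of all 18193 genes. The markers had a median of -0.15, and none was called. Only 4 of them were lower at each replicate number, and their mean differences within replicate numbers were -0.16, -0.058 and -0.36. The summed level of these markers ran from 10.60 to 11.30 in SAP-deficient and from 10.75 to 11.44 in WT arrays. Ighm, by far the brightest, weighed most in that sum and differed by -0.023. Of the 12 markers 5 lay under the median probe-set mean. RMA values have no zero, so none can be called absent, and the part of B cell RNA in the Ccr6 difference was not tested.

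**Figure D3:**
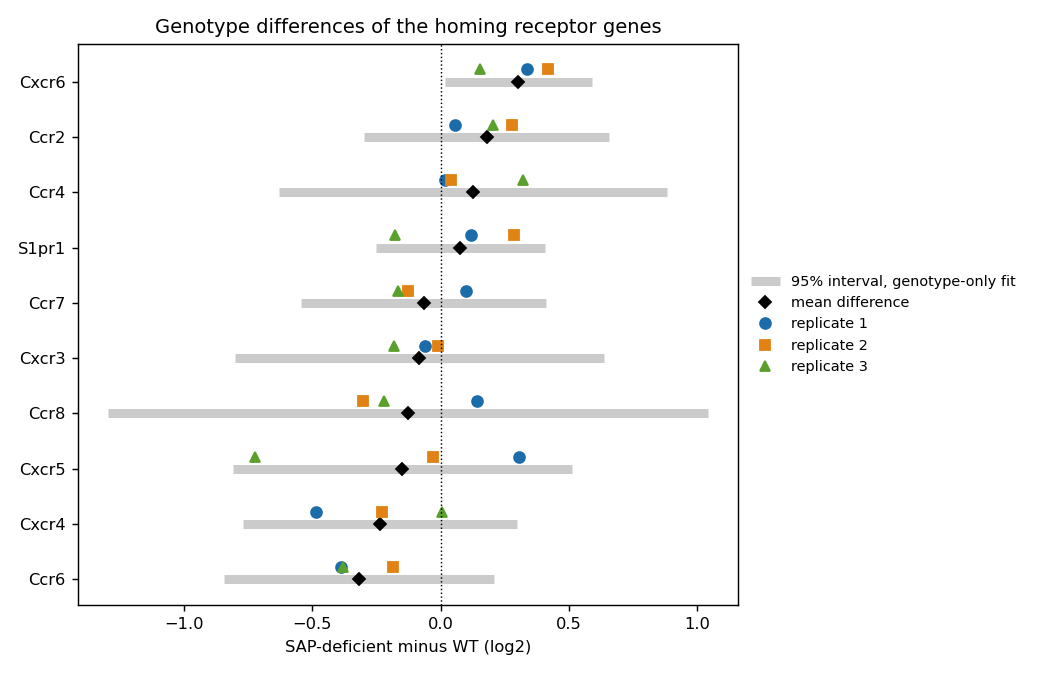
Difference SAP-deficient minus WT (log2) of each homing receptor gene: black diamonds are the pooled difference, grey bars its 95% interval in the genotype-only fit, and coloured symbols the difference within each replicate number. Only the Cxcr6 interval, 0.016 to 0.59, lies on one side of 0; none of the 10 genes passed after adjustment.

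Agreement of sign across replicate numbers was found for 5 of the 10 genes: Cxcr6, Ccr2 and Ccr4 were higher in SAP-deficient cells in all 3, and Cxcr3 and Ccr6 were lower in all 3. Over all genes 28.8% kept 1 sign in all 3. With replicate number as a block, 4 of the 10 had an unadjusted p under 0.05, Cxcr6 and Ccr2 higher and Ccr6 and Cxcr4 lower, beside 6.10% of all genes. None was called in that fit either, beside 0.00550% of all genes, which is Sh2d1a alone. The members were chosen with earlier results of these data known, so these counts are descriptions.

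Replicate number accounted for far more of the variation of the homing receptors than genotype did, as it did over all genes. The pair means of equal replicate numbers were 0.5 or more apart in 8 of the 10 genes, the exceptions being Cxcr6 (0.26) and S1pr1 (0.33), beside 15.1% of all genes and 21.6% of the genes with a mean above the median. Pair means were further apart than genotype means in 9 of the 10, all but Cxcr6, beside 88.9% of all genes. Replicate number has more levels than genotype, so even without any effect its means tend to spread wider and hold a larger share. The pairs held a median of 81.0% of a gene's sum of squares and genotype a median of 4.36%, against 66.9% and 6.36% over all genes. Over the genes with a mean above the median these values were 78.7% and 4.5%, close to those of the receptors. Cxcr6 had the opposite split, with 61.0% between genotypes and 30.9% between pairs.

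The replicate numbers had distinct receptor patterns. Replicate 1 had the lowest Ccr4, with deviations from the gene's mean of -0.56 in SAP-deficient and -0.58 in WT cells. Replicate 2 combined the lowest Cxcr3 (-0.61 and -0.60) and Ccr2 (-0.20 and -0.48) with the highest Ccr7 (0.31 and 0.43) and Ccr6 (0.26 and 0.44). Replicate 3 combined the highest Ccr8 (0.86 and 1.08) and Ccr4 (0.64 and 0.32) with the lowest Cxcr4 (-0.39 in both genotypes) and Ccr6 (-0.53 and -0.15). What distinguishes the replicate numbers is not stated in the labels. Xist, the RNA of the inactive X chromosome, was at 12.50 in both replicate 1 arrays, at 8.19 and 8.21 in replicate 2 of SAP-deficient and WT cells, and at 6.26 and 5.81 in replicate 3, while Eif2s3y, a Y-linked gene, was at 2.91 and 3.54 in replicate 1 and between 9.76 and 9.98 in the other arrays. The X-linked gene Cxcr3 was high in both replicates 1 and 3. Differences linked to Xist and Eif2s3y cannot be told apart from other differences between replicate numbers and were not tested.

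**Figure D4:**
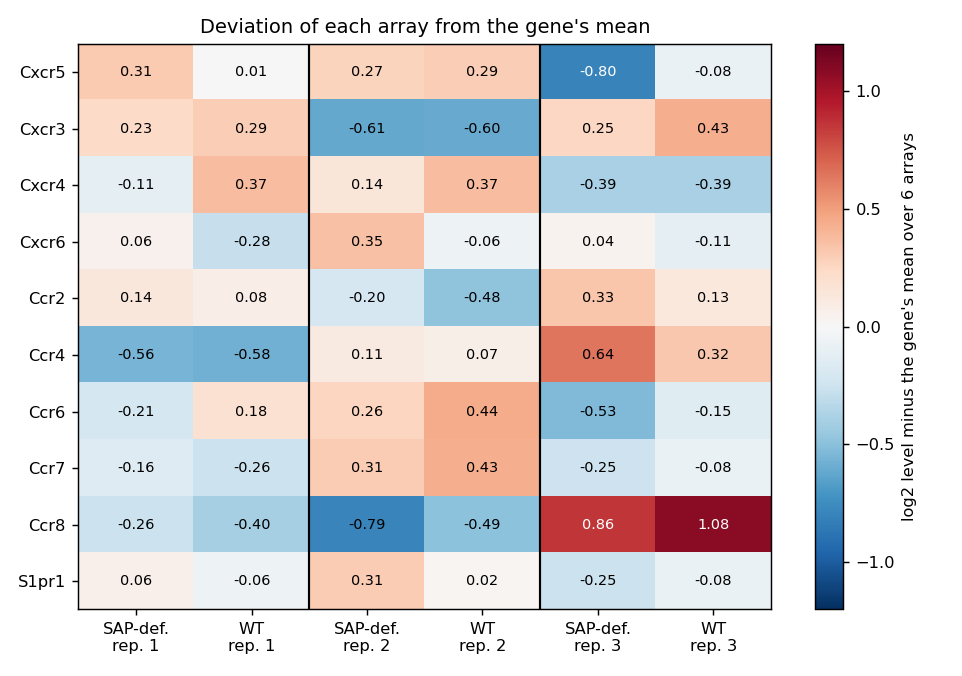
Deviation of each array (log2) from the gene's mean over 6 arrays, with SAP-deficient and WT arrays of equal replicate number side by side. Colours change between replicate numbers more than between genotypes, most for Ccr8 (-0.79 to 1.08), and Cxcr6 is the exception.

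For 8 homing receptor genes with a mean above the median and an SD over 0.2, the genes with the most similar profile over the 6 arrays were looked up among 3735 genes that met the same limits. Because the 6 arrays form 3 like pairs, high correlations are common: 410 genes reached r over 0.9 with Cxcr3, 270 with Ccr7 and 213 with Ccr2. Closest to Cxcr3 were Rgcc, Ptpn22 and Hpcal1 (r from 0.996 to 0.995), and closest to Ccr7 were Fam3c, Ift46 and Trim21 (0.996 to 0.990). Prag1, Sik2 and Rsph1 were nearest to Ccr2 (0.995 to 0.990), and Dusp5, a MAP kinase phosphatase gene, with Ubd and Sema4b to Ccr4 (0.993 to 0.982). Mast4, Pde7a and Rabl2 were nearest to Cxcr4 (0.991 to 0.980) and Kifap3, Cdan1 and Chst12 to Ccr6 (0.987 to 0.978). For Cxcr5 the nearest were Gpr137b-ps, Ramp3 and Gm15417 (0.987 to 0.968), all lowest in SAP-deficient replicate 3. Cxcr6 had only 3 genes over 0.9, Mgll, Cysltr1 and Sema4a (0.942 to 0.908).

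Of 23 other measured receptors for chemokines and related migration cues, 12 lay above 0 and 11 below (SAP-deficient minus WT), the median being 0.0060, and none was called. Gpr183, encoding the oxysterol receptor EBI2 that positions activated T cells at the follicle border, was at 9.72, 9.62 and 9.68 in SAP-deficient cells and at 9.36, 9.50 and 9.28 in WT cells. The Gpr183 groups were separate, with a difference of 0.30 (95% interval 0.048 to 0.54, unadjusted p = 0.0248, adjusted p = 1.00, limma). Gpr18 was also separate, at 11.22, 11.09 and 11.05 in SAP-deficient and 10.90, 10.99 and 10.89 in WT cells, a difference of 0.20. Of the same list Ackr1 (-0.14) and C5ar1 (-0.12) were separate in the other direction, beside shares of 2.38% above and 2.94% below over all genes. These 2 were named after their values were seen. S1pr2, encoding the S1P receptor that confines Tfh cells to germinal centres, differed by 0.17 ± 0.18 (SE) and S1pr4 by -0.047 ± 0.21. The gut-homing receptor gene Ccr9 differed by -0.0063 ± 0.10 and the inflammatory receptor gene Ccr1 by 0.017 ± 0.27. Ccr3, an eotaxin receptor gene, had 4.58, 3.96 and 6.18 in SAP-deficient replicates 1 to 3 and 5.12, 3.96 and 6.45 in WT replicates 1 to 3, so like Ccr8 it was highest in replicate 3 of both genotypes.

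Among 14 measured ligands of the homing receptors, 5 were higher and 9 lower, with a median of -0.081, and none was called. Ccl1, the ligand of CCR8, had 11.57, 11.49 and 12.67 in SAP-deficient replicates 1 to 3 and 10.86 to 12.26 in WT arrays. It was higher in SAP-deficient cells at each replicate number, by 0.39, 0.63 and 0.41, with an adjusted p of 1.00 in the genotype-only fit and 0.0801 with the block (limma). Ccl1 was named for its small p in the block, which favours 1 sign at all replicate numbers. Its difference of 0.47 moved to between 0.095 (without SAP-deficient replicate 3) and 0.89 (without WT replicate 3), and it was called in the block without replicate 3 (adjusted p = 0.00251, limma). Ccl1 and Ccr8 were both highest in replicate 3. Ccl22, a ligand of CCR4, differed by -0.38 ± 0.34 (SE), with -0.018, -0.22 and -0.89 within replicate numbers, and Ccl12, a ligand of CCR2, by -0.22 ± 0.087 at a dim level of 2.78 to 3.16. The Ccl12 groups were separate, as were those of Ccl2 (-0.22), both lower in SAP-deficient cells, beside 2.94% of all genes. No ligand was separate in the other direction, and Ccl2 was named after its values were seen. Cxcl13, the CXCR5 ligand, differed by -0.10 ± 0.12, but by -0.27 with the mean of its probe sets and by -0.44 with its most variable probe set.

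Enzymes and transporters of S1P showed little difference: of 11 genes 7 were higher and 4 lower, with a median of 0.047, and none was called. The largest was Plpp3, encoding a lipid phosphatase that breaks S1P down, at -0.26 ± 0.14 (SE). Plpp1 and the S1P phosphatase gene Sgpp2 differed by 0.088 ± 0.14 and 0.12 ± 0.12.

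Of 32 genes that transmit or end receptor signals, 18 were higher and 14 lower, with a median of 0.0080, and none was called. Grk5, a kinase gene whose product desensitizes G protein-coupled receptors, had 9.02, 8.97 and 8.81 in SAP-deficient replicates and 9.15, 9.28 and 9.35 in WT replicates. Those groups were separate, with a difference of -0.33 (95% interval -0.60 to -0.059, unadjusted p = 0.0230, adjusted p = 1.00, limma). Rgs18 (-0.24) was separate in the same direction, as were 2.94% of all genes, and Cdc42 (0.095) in the opposite one; both were named after their values were seen. Rgs2, which shortens G protein signals, differed by -0.34 ± 0.13 (SE) and the arrestin gene Arrb1 by 0.36 ± 0.33. Rgs1 and Rgs16, other brakes on chemokine responses, differed by -0.12 ± 0.098 and -0.016 ± 0.18.

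Of 20 regulators and partners of these receptors, 11 were higher and 9 lower, with a median of 0.033, and none was called. Klf2, the factor that drives S1pr1 transcription, had 6.68, 6.59 and 7.21 in SAP-deficient replicates 1 to 3, against 6.97, 6.69 and 7.46 in WT replicates 1 to 3. It was lower by a difference of -0.21 ± 0.24 (SE) and at each replicate number. Cd69, whose product pulls S1PR1 off the cell surface, differed by 0.15 ± 0.19 and had levels from 10.84 to 11.53 over all 6 arrays. Eomes differed by 0.35 ± 0.34, Id2 by 0.14 ± 0.13 and Batf by 0.17 ± 0.098, each higher in SAP-deficient cells at all 3 replicate numbers. These 3 were named for the smallest p of this list in the block, which favours 1 sign throughout. Over all genes 28.8% kept 1 sign. With the mean of its probe sets Id2 differed by 0.027. Bcl6, the Tfh-directing repressor gene, differed by -0.069 ± 0.24.

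**Figure D5:**
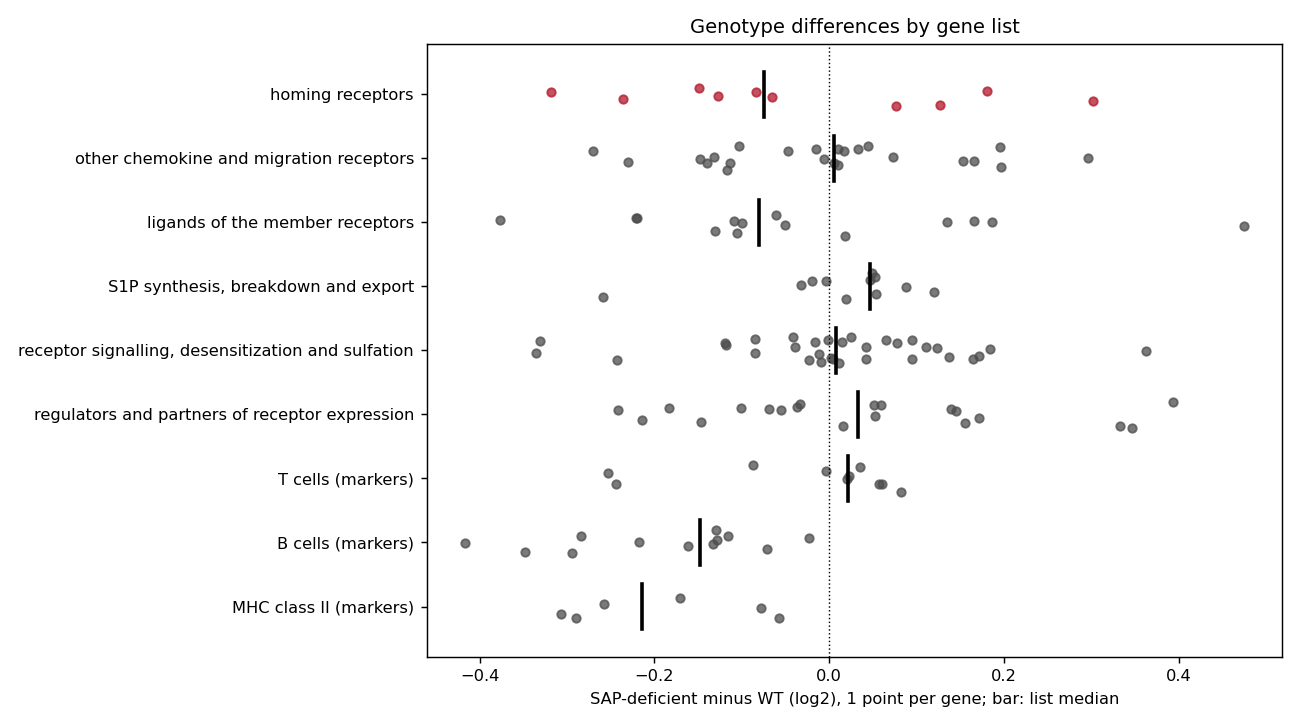
Difference SAP-deficient minus WT (log2) of every measured gene in the homing receptor group (red), in 5 lists of related genes and in 3 marker lists, with a black bar at each list's median. The homing receptors lie between -0.32 and 0.30. All 12 B cell and all 6 MHC class II markers lie below 0, beside 8493 of all 18193 genes.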

How the data were processed

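RNA for 6 arrays (500 ng each, per the labels' protocols) was hybridised to Affymetrix mouse arrays. The deposited log2 values were made by the authors with Affymetrix Expression Console and RMA, per the submitters' processing notes. No source used here gives versions. RMA equalises array distributions, so shifts in total RNA are not seen, and it compresses differences of dim probe sets.

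Of 45101 probe sets, 64 controls were left out. The platform annotation names 1 gene for 34945 of the others, several for 932 and none for 9160. Limma (version 3.58.1, R version 4.3.3) was run on all 45037 probe sets with genotype as the only term, eBayes and an intensity trend. Benjamini-Hochberg adjustment ran over 18193 genes, each represented by its brightest single-gene probe set, with a threshold of 0.05. The fit was tested on simulated data. The members and lists were chosen with earlier results of these data known. Named were the 10 receptors, a fixed set of related genes and the 3 genes of each related list with the smallest p in the replicate block. Some listed genes were not analysed here. Alternatives covered the block, variance moderation, dim probe sets, normalization, array weights, choice of probe set and left-out arrays.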

Additional observations from a re-analysis of the deposited data

How the results depend on the processing

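Of the 10 receptor genes, 0 were called in the fits on all arrays and in the fits without 1 array. In the replicate block without replicate 3, which leaves 4 arrays, 1 was called, Cxcr6 (0.38, adjusted p = 0.0361, limma), as was the ligand gene Ccl1 (0.51, adjusted p = 0.00251). The count over all genes was 1 with the replicate block, with robust variance and without _x_at and _s_at probe sets, and it ran from 0 to 1 when 1 array was left out. It was 3, 1 and 37 in the replicate block without replicate 1, 2 and 3. Cxcr4, Cxcr6 and Ccr6 kept their sign in all 19 alternatives, with ranges of -0.49 to -0.10, 0.20 to 0.38 and -0.53 to -0.13. The number of receptor genes with separate groups was 0 with the most variable probe set, 1 to 3 without 1 array and up to 4 in the block without 1 replicate number. Groups of fewer arrays separate more often by themselves, and the share over all genes was not computed for these alternatives. The sign turned with array weights for Cxcr3 (0.039), Ccr8 (0.13), Ccr9 (0.020) and Rgs16 (0.012), after a second quantile normalization for Ccr1 (-0.020) and Ccr9 (0.010), and after centring for Ccr9 (0.0028). Averaging the probe sets of a gene turned Ccr9 (0.00099) and Bcl6 (0.095), and leaving out _x_at and _s_at probe sets turned Plpp1 (-0.030). The median over the receptor genes turned with array weights (0.046) and ran from -0.12 to 0.084 without 1 array. The cause was not tested.

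Leaving out 1 array gave ranges that crossed 0 for Cxcr5 (-0.34 to 0.21), Cxcr3 (-0.41 to 0.20), Ccr2 (-0.015 to 0.33), Ccr4 (-0.16 to 0.44), Ccr7 (-0.23 to 0.14), Ccr8 (-0.59 to 0.38) and S1pr1 (-0.058 to 0.22). The same held for Ccr3 (-0.91 to 0.37), S1pr4 (-0.24 to 0.10), Ccr1 (-0.24 to 0.20), Ccr9 (-0.085 to 0.034), Ccl22 (-0.66 to 0.020), Plpp1 (-0.0018 to 0.21), Rgs16 (-0.20 to 0.15) and Bcl6 (-0.25 to 0.18). In the block, the sign turned without replicate 1 for Ccr1 (-0.065) and Bcl6 (0.046). Without replicate 2 it turned for S1pr1 (-0.030), Ccr1 (-0.053), Ccr9 (0.026) and Rgs16 (0.087). Without replicate 3 it turned for Cxcr5 (0.14), Ccr9 (0.026), Sgpp2 (-0.036) and Plpp1 (-0.032). Leaving out 1 array unbalances the pairs of equal number. Ccr8 and S1pr1 lay under the median probe-set mean and were not measured in the alternative without dim probe sets.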

Other observations

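Gata3, the Th2-directing factor gene, had 10.15, 9.57 and 10.83 in SAP-deficient replicates 1 to 3 and 10.04, 9.50 and 10.54 in WT replicates 1 to 3. Replicate 3 was highest in both genotypes, as it was for Ccr8, Ccr3, Ccr4 and Ccl1, while replicate 2 was lowest for Gata3, Ccr8, Ccr3 and Ccl1 but not for Ccr4. Ccl22, a CCR4 ligand, went the other way, with its lowest values in replicate 3: 7.94 in SAP-deficient and 8.83 in WT cells. These genes were put side by side after their values were seen, so this is a description with no test and no shared profile is claimed.

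Prdm1, the antagonist of Bcl6, had 6.61, 6.23 and 6.46 in SAP-deficient replicates 1 to 3 and 6.31, 5.73 and 6.26 in WT replicates 1 to 3. It was higher in SAP-deficient cells at each replicate number, by 0.30, 0.50 and 0.20, and differed by 0.33 ± 0.19 (SE, adjusted p = 1.00, limma). This gene was chosen after its values were seen.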
